A study of Mus musculus with 16 samples.

Results

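The genes described here are 45 genes of the cell division cycle, chosen by name: regulators, cyclins, replication proteins and the kinases, motors and checkpoint proteins of mitosis. Of these, 42 had a feature named for them on the array, 1 feature each, among 19505 named genes in all. The cyclin Ccnb1, the transcription factor Foxm1 and the helicase subunit Mcm7 had no feature named for them, so their signals are not analysed here. All 42 were kept, with no filter on dim signals.

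The arrays are from the Kentucky assay, which as generally used sorts the olfactory sensory neurons activated by an odor in living mice through a green fluorescent reporter of S100a5, a calcium-binding protein gene whose transcription follows neuronal activity; the reporter allele is not given in the sources used here. C57BL/6 mice, 24 in all, of both sexes and 7 to 12 weeks old, spent 40 h alone in chambers supplied with clean air at 3.1 L/min. From 26 h on they received 10 s pulses every 20 min, either of whiskey lactone, which gives oak-aged drinks part of their smell (odor), or of filtered air (vehicle). Olfactory mucosa was dissociated, cells of 3 mice were pooled, and each of the 8 pools was sorted by fluorescence into 2 fractions, which gave 4 groups of 4 Affymetrix arrays: odor titled GFP+, odor titled GFP-, vehicle titled GFP+ and vehicle titled GFP-. All 4 groups share the strain, the clean-air housing and the pooling of 3 mice per sample. Replicates are separate pools.

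In all 16 arrays the title and the cell type field disagree on which fraction was sorted. S100a5 itself was lower in the arrays titled GFP+: it averaged 15.24 ± 0.30 in odor titled GFP+ against 16.58 ± 0.13 in odor titled GFP-, and 15.28 ± 0.27 in the vehicle arrays titled GFP+ and 16.51 ± 0.19 in the vehicle arrays titled GFP- (log2 signal, SD, n = 4 each). The fractions are therefore called by their titles throughout, and which fraction fluoresced cannot be told apart from the labels alone. Omp, which marks mature olfactory neurons, lay between 18.43 and 18.83 on all 16 arrays. That is close to the highest signal on each array (19.09 to 19.24), so Omp alone does not show how far the fractions match in neurons. The list of mature neuron genes is given under other observations.

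The values are log2 signals, so that a difference of 1 is a doubling. The median over all genes was 6.95 to 7.13 in the arrays titled GFP+ and 6.62 to 6.70 in the arrays titled GFP-. Background was read from 5222 negative control features, whose median was 4.98 to 5.59 on the 16 arrays, with a 95th percentile of 9.09 to 10.11. The number of arrays limits the precision. Features bind differently, so signals of different genes are not set against each other here.

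Before a cell divides, it copies its genome in S phase and separates the copies in mitosis. E2F factors switch on replication genes, and later the B-Myb and FoxM1 factors switch on mitotic genes. In cells that have left the cycle, repressor complexes hold both sets down. Olfactory sensory neurons do not divide, but the olfactory epithelium keeps dividing progenitors, the globose basal cells, throughout life. Dissociated mucosa also holds blood and marrow-derived cells, whose precursors divide.

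Promoters of members are shown because the S phase and mitosis sets are known to differ in promoter elements. RefSeq promoters (GRCm38.p6, 250 bases before to 50 after the gene start, gene strand, 5′ to 3′) matched 37 of the 45 members, Ccnb1 and Mcm7 included. The 4 printed are the S phase genes Rrm2 and Mcm5 and the mitotic genes Mki67 and Ccnb2, chosen as the 2 largest fraction differences in vehicle pools within each class. Only matched promoters that hold any of the marked letters were eligible. Capitals mark 3 kinds of letters, searched on both strands. The first is CCAAT, the box bound by the factor NF-Y. Another is TTTGAA, known as the cell cycle genes homology region. The E2F type is TTCGCGC, or as another spelling TTGGCGC, or as the remaining one TTCCCGC. Matches may overlap, and each is counted. In Mcm5, E2F-type matches of both strands share letters within the stretch TTCGCGCCAA.
Rrm2, chr12:24708004-24708303, plus strand: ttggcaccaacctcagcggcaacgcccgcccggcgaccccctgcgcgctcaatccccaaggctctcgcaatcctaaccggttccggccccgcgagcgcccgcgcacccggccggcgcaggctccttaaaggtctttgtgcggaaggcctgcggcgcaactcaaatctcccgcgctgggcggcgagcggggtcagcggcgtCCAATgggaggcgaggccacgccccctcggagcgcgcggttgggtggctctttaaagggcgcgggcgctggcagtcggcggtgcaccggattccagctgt
Mcm5, chr8:75109259-75109558, plus strand: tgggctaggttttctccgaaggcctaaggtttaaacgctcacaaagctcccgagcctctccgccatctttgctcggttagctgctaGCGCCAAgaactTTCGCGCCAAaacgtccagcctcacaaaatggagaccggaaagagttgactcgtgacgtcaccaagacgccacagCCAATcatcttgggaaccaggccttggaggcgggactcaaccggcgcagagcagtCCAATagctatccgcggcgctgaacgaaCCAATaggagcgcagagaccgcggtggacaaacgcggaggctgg
Mki67, chr7:135716330-135716629, minus strand: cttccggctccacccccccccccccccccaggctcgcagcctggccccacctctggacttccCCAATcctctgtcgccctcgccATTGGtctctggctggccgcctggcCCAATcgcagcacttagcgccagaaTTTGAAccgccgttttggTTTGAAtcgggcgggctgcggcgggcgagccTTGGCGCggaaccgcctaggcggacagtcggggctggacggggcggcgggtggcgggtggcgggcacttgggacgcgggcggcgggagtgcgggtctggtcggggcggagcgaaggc
Ccnb2, chr9:70421505-70421804, minus strand: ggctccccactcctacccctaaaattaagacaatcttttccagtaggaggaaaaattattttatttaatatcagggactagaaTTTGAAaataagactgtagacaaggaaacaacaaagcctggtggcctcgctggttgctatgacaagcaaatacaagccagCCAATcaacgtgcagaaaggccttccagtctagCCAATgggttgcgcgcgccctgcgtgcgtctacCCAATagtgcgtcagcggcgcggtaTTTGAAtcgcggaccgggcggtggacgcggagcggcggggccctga

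CCAAT was present in 27 of the 37 matched member promoters (73.0%), against 37.9% of 27025 genes in the table, with 1 promoter per gene. TTTGAA was present in 17 (45.9%, against 18.1% of all promoters) and the E2F-type letters in 11 (29.7%, against 8.21%). The mitotic members carried TTTGAA in 15 of 21 promoters (71.4%) and E2F-type letters in 4 (19.0%). The S phase members carried TTTGAA in 2 of 14 (14.3%) and E2F-type letters in 6 (42.9%). The printed promoters follow that division in part: Mki67 and Ccnb2 each hold TTTGAA at 2 places and CCAAT at 3, Mki67 also holds E2F-type letters at 1 place, Mcm5 holds E2F-type letters at 3 places and CCAAT at 3, and Rrm2 holds CCAAT at 1 place. A match is a run of letters, not a bound site.

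The main comparison sets the fraction titled GFP+ against the fraction titled GFP- of the same pool. Most of the cell cycle genes had the higher signal in the fraction titled GFP+, in both treatments. In odor pools 38 of 42 members were higher and 0 were lower (limma with the pool as a block, adjusted p under 0.05 over all genes), where 12.8% of all genes were higher and 14.7% lower. In vehicle pools 35 of 42 were higher and 0 lower, where 12.3% of all genes were higher and 13.6% lower. The median log2 difference of the members was 2.19 in odor pools (range 0.18 to 6.70) and 1.96 in vehicle pools (range -0.02 to 5.61). Over all genes these medians were -0.15 and -0.14.

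The 35 members called in vehicle pools were all among the 38 called in odor pools. Every array titled GFP+ lay above every array titled GFP- for 35 members in odor pools (12.0% of all genes) and for 34 in vehicle pools (11.2% of all genes). The fitted difference was positive for 42 of 42 members in odor (32.1% of all genes) and for 41 in vehicle (32.8% of all genes). It was positive in each of the 4 pools for 38 members in odor (16% of all genes) and for 39 in vehicle (15.9% of all genes). In these bulk samples, fewer cells of a dividing type and less of their RNA per cell cannot be told apart.

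The scaling of the arrays moved these counts, because it moves all genes together. When the arrays were centred on 12 housekeeping genes, 26 members were higher and 5 lower in odor pools, and 24 higher and 4 lower in vehicle pools. That centring moved the median of all genes to -1.14 in odor and -1.06 in vehicle pools. The 12 housekeeping genes themselves differed between the fractions, with 6 higher and 0 lower in odor pools, and 5 higher and 1 lower in vehicle pools. Their median over arrays was 12.97 in odor titled GFP+ against 11.80 in odor titled GFP-. In vehicle it was 13.14 titled GFP+ against 11.94 titled GFP-. Relative to the median of all genes, the median of the members was 2.34 higher in odor pools and 2.10 higher in vehicle pools under the deposited scaling. Median, housekeeping and mature neuron centring shift all genes of an array by the same amount, so these values could not change under them. Cyclic loess, which can change them, gave 2.34 and 2.10. All 42 members lay above the median of all genes under the deposited scaling and under loess.

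**Figure D1:**
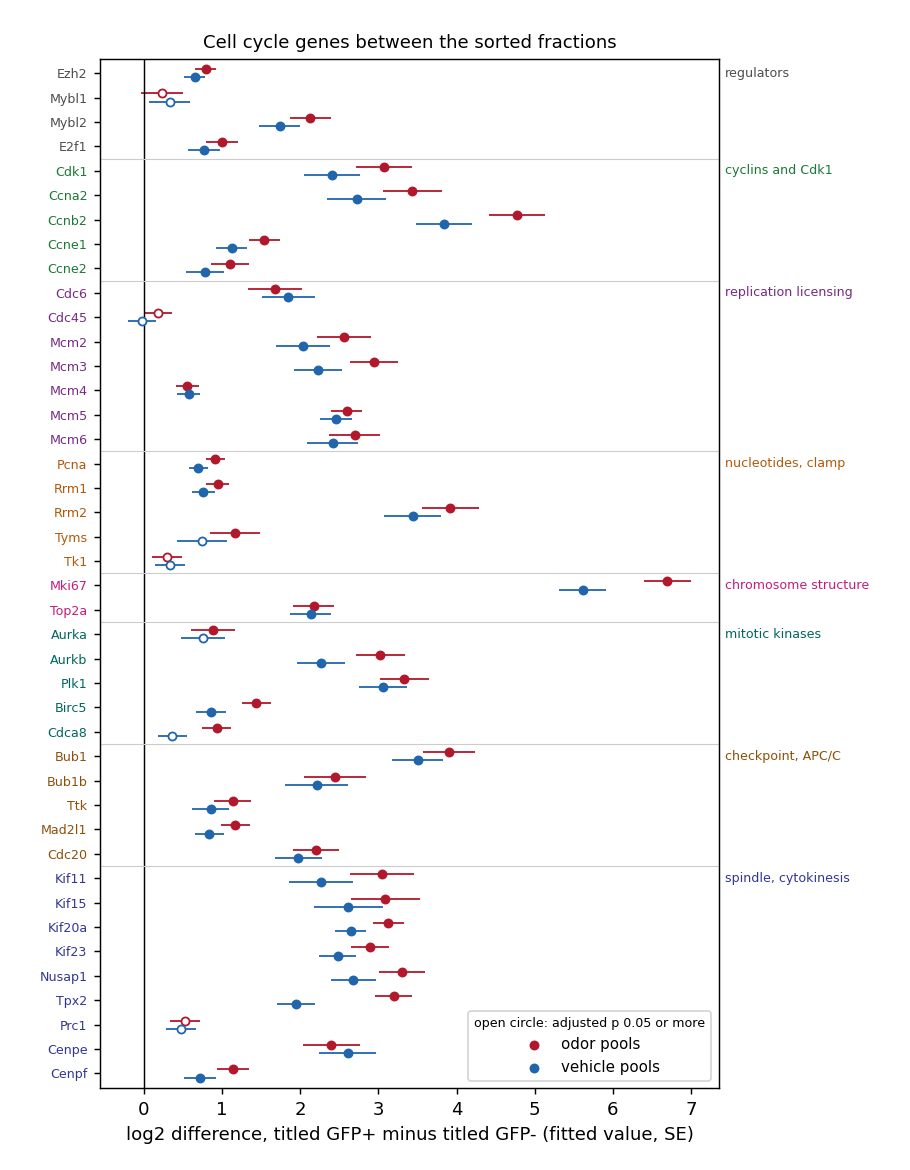
Fitted log2 difference (x axis, titled GFP+ minus titled GFP-) of each of the 42 members (rows, by role), for odor pools in red and vehicle pools in blue; bars are SE, and open circles did not pass the adjusted p of 0.05. Mki67 lies farthest to the right, at 6.70 in odor and 5.61 in vehicle pools, and Cdc45, Mybl1 and Tk1 lie nearest to 0.

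Much of this was a rise past the negative control median. The arrays titled GFP+ had 36 to 40 members above the negative control median in odor and 32 to 40 in vehicle, whereas the arrays titled GFP- had 20 to 25 in odor and 19 to 22 in vehicle. Far fewer exceeded the 95th percentile of the controls: 5 to 16 in odor and 3 to 8 in vehicle arrays titled GFP+. In the arrays titled GFP- these were 3 in odor and 2 to 3 in vehicle. In the arrays titled GFP-, 16 members in odor and 18 in vehicle were at or below the control median on every array. For such members the fold is a bound, the mean of the bright group against, per array, the higher of the control median and the gene's own signal. In odor pools 14 members have such a bound, and with them at their bound the median of 40 members is 1.41; Tk1 and Cenpf, at or below the control median on every array of both fractions, are left out. In vehicle pools 17 have a bound, of which 12 exceed 0, and the median of 41 members is 0.78, with Cenpf left out.

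**Figure D2:**
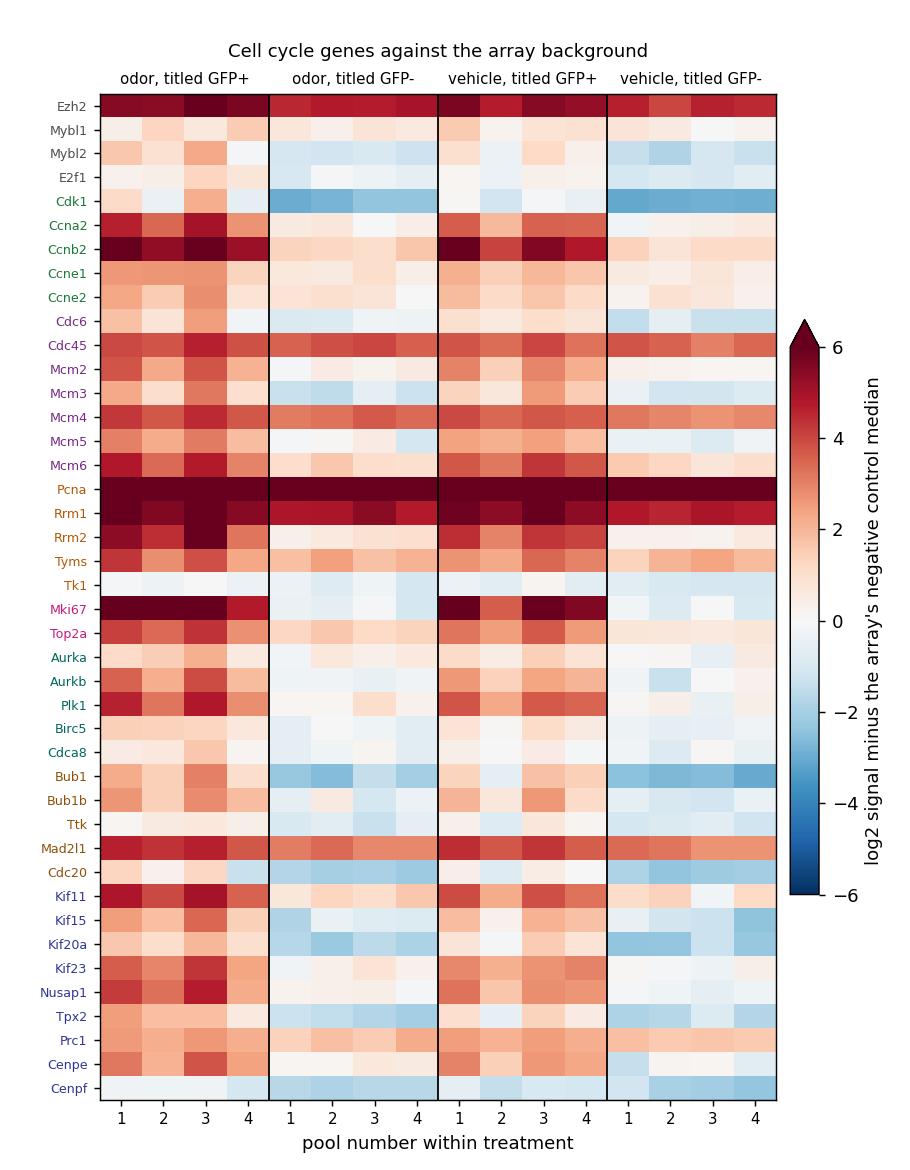
Log2 signal of each member (rows) minus the negative control median of the same array, for 16 arrays in columns by group and pool number; red is above and blue below the control median, and values over 6 share the darkest red. Members such as Bub1, Kif20a and Tpx2 turn from blue in the arrays titled GFP- to red in most arrays titled GFP+, while Pcna, Rrm1 and Ezh2 are red on all 16.

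Of the chromosome proteins, Mki67 encodes a protein that coats mitotic chromosomes and is the common marker of cycling cells. It read 12.05, 11.48, 12.33 and 10.00 in the odor arrays titled GFP+ (pools 1 to 4), against 5.04, 4.74, 5.07 and 4.23 in the odor arrays titled GFP-. In vehicle pools it read 11.21, 9.10, 11.14 and 11.14 in the arrays titled GFP+, against 5.26, 4.69, 5.53 and 4.66 in the arrays titled GFP-. No array titled GFP- exceeded its control median, and every array titled GFP+ did. The fitted difference was 6.70 ± 0.30 in odor (SE, n = 4 pools, limma adjusted p = 2.73e-09, at least 72.4-fold) and 5.61 ± 0.30 in vehicle (adjusted p = 1.62e-08, at least 35.2-fold), the largest of the 42 members in each treatment.

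Top2a, the topoisomerase that untangles sister chromatids, had a smaller difference from a base above the control median. It read 9.34, 8.61, 9.32 and 7.96 in the odor arrays titled GFP+, against 6.66, 6.91, 6.33 and 6.63 in the odor arrays titled GFP-. In vehicle it read 8.28, 7.97, 8.89 and 8.17 titled GFP+, against 6.15, 6.20, 6.13 and 6.30 titled GFP-. The groups did not overlap, and the differences of 2.17 ± 0.26 in odor and 2.13 ± 0.26 in vehicle (limma adjusted p = 3.44e-05 and 4.44e-05) were near-equal folds, 4.51 and 4.39.

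All 5 measured genes of the group of cyclins and Cdk1, with Cdk1 counted, were higher in the arrays titled GFP+ in both treatments. Ccnb2 encodes a cyclin B, the partner of Cdk1 at entry into mitosis. It read 12.11, 10.55, 12.54 and 10.40 in the odor arrays titled GFP+, against 6.78, 6.53, 6.22 and 6.98 titled GFP-, a 27.4-fold difference (4.78 ± 0.36, limma adjusted p = 3.97e-07). In vehicle pools its signals were 11.15, 9.54, 10.75 and 10.41 titled GFP+, against 6.82, 6.28, 6.67 and 6.73 titled GFP-, a 14.3-fold difference (3.84 ± 0.36, adjusted p = 3.31e-06). It was above the control median on all 16 arrays, so these folds are not bounds.

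Ccna2, cyclin A, which acts in S phase and early mitosis, read 9.88, 8.64, 9.98 and 7.94 in the odor arrays titled GFP+, against 5.95, 5.96, 5.10 and 5.72 titled GFP-. Its vehicle signals were 8.70, 7.45, 8.76 and 9.10 titled GFP+, against 5.27, 5.81, 5.88 and 6.16 titled GFP-. The gap between fractions exceeded the spread within them, at 3.43 ± 0.38 in odor and 2.73 ± 0.38 in vehicle (limma adjusted p = 1.38e-05 and 0.000123). Ccne1 and Ccne2, the E cyclins that start S phase, had smaller differences: 1.54 ± 0.20 and 1.10 ± 0.24 in odor, and 1.12 ± 0.20 and 0.78 ± 0.24 in vehicle.

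Cdk1, the kinase that drives entry into mitosis, is a dim feature here. It read 6.35, 4.80, 7.16 and 4.64 in the odor arrays titled GFP+, against 2.42, 2.51, 2.77 and 2.94 titled GFP-. The vehicle values were 5.11, 4.34, 5.16 and 5.16 titled GFP+, against 2.34, 2.53, 2.65 and 2.64 titled GFP-. Only 2 of 4 odor and 1 of 4 vehicle arrays titled GFP+ exceeded the control median, and none titled GFP- did. The fitted differences of 3.08 ± 0.36 and 2.40 ± 0.36 passed the threshold (limma adjusted p = 2.28e-05 in odor and 0.000227 in vehicle), but the bound was at least 1.37-fold in odor, with no bound above 1 in vehicle.

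Of the 7 measured licensing genes, which prepare and fire replication origins, 6 were higher in both treatments. Mcm5 is a subunit of the ring helicase that unwinds DNA at the fork. It read 8.22, 7.45, 8.12 and 7.10 in the odor arrays titled GFP+, against 5.30, 5.36, 5.62 and 4.24 titled GFP- (2.59 ± 0.20, limma adjusted p = 5.6e-07). For vehicle pools it read 7.45, 7.61, 7.65 and 7.40 titled GFP+, against 5.05, 5.14, 4.73 and 5.34 titled GFP- (2.46 ± 0.20, adjusted p = 1e-06, at least 4.04-fold). The 4 vehicle arrays titled GFP+ lay within 0.25 of each other.

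Mcm6, another subunit, read 10.01, 8.62, 9.73 and 8.22 in the odor arrays titled GFP+, against 6.46, 6.90, 6.20 and 6.25 titled GFP-. In vehicle it read 8.79, 8.66, 9.51 and 9.31 titled GFP+, against 7.01, 6.76, 6.24 and 6.59 titled GFP-. The differences were 2.69 ± 0.33 (6.48-fold) in odor and 2.42 ± 0.33 (5.35-fold) in vehicle. Mcm2 and Mcm3 were of similar size, at 2.56 and 2.94 in odor and 2.03 and 2.23 in vehicle. Mcm4, though part of the same ring, had 0.55 ± 0.15 in odor and 0.57 ± 0.15 in vehicle (limma adjusted p = 0.0143 and 0.0126). Its feature was above the control median on all 16 arrays. Cdc6, which loads the ring onto origins, had 1.67 ± 0.34 in odor and 1.85 ± 0.34 in vehicle.

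Cdc45, which joins the ring to form the active helicase, did not pass in either treatment. It read 9.18, 9.01, 9.66 and 9.05 in the odor arrays titled GFP+, against 8.98, 9.15, 9.13 and 8.90 titled GFP-. In vehicle pools its signals were 8.82, 8.85, 9.22 and 8.85 titled GFP+, against 9.19, 9.08, 8.54 and 9.01 titled GFP-. The groups overlapped, well above the control median, with fitted differences of 0.18 ± 0.18 in odor and -0.02 ± 0.18 in vehicle (limma adjusted p = 0.471 and 0.944).

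Among the genes of nucleotide supply and the replication clamp, 4 of 5 were higher in odor and 3 of 5 in vehicle. Rrm2 encodes the small subunit of ribonucleotide reductase, which makes deoxynucleotides and is produced mainly in S phase. It read 10.61, 9.65, 10.94 and 8.44 in the odor arrays titled GFP+, against 5.72, 5.86, 6.08 and 6.29 titled GFP-, a 15.1-fold difference (3.92 ± 0.37, limma adjusted p = 3.07e-06). Its vehicle signals were 9.50, 8.44, 9.50 and 9.66 titled GFP+, against 5.67, 5.79, 5.73 and 6.16 titled GFP-, a 10.8-fold difference (3.44 ± 0.37, adjusted p = 1.15e-05). Its partner, the large subunit Rrm1, differed far less: 0.94 ± 0.15 in odor and 0.76 ± 0.15 in vehicle, from a mean of 10.27 in the arrays titled GFP- of both treatments. Pcna, the sliding clamp of the replication fork, differed by 0.92 ± 0.12 in odor and 0.70 ± 0.12 in vehicle, with the arrays titled GFP- already at 13.55 to 14.14.

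Tyms, which makes thymidylate, read 9.50, 8.01, 8.84 and 7.55 in the odor arrays titled GFP+, against 7.22, 7.76, 6.90 and 7.37 titled GFP-. The vehicle values were 7.74, 7.77, 8.63 and 8.57 titled GFP+, against 6.79, 7.59, 7.91 and 7.46 titled GFP-. The fractions overlapped, and the difference passed in odor (1.17 ± 0.32, limma adjusted p = 0.0159) but not in vehicle (0.74 ± 0.32, adjusted p = 0.108). Tk1, the thymidine salvage kinase, read 5.14, 4.90, 4.97 and 4.89 in the odor arrays titled GFP+, against 5.06, 4.50, 4.88 and 4.26 titled GFP-. For vehicle pools it read 4.68, 4.81, 5.38 and 4.92 titled GFP+ and 4.74, 4.63, 4.52 and 4.56 titled GFP-. Only 1 of these 16 values exceeded its control median, so nothing about Tk1 can be read from them.

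Of the 4 measured regulators, 3 were higher in both treatments. Mybl2 encodes B-Myb, an activator of mitotic genes. It read 6.84, 6.11, 7.26 and 5.14 in the odor arrays titled GFP+, against 4.43, 4.15, 4.20 and 4.05 titled GFP- (2.13 ± 0.26, limma adjusted p = 3.81e-05, at least 2.07-fold). In vehicle it read 6.02, 5.15, 6.40 and 5.90 titled GFP+, against 4.05, 3.71, 4.54 and 4.21 titled GFP- (1.74 ± 0.26, adjusted p = 0.00025, at least 1.28-fold). It exceeded the control median in 3 of 4 arrays titled GFP+ of each treatment and in none titled GFP-.

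E2f1, an activator of S phase genes, differed by 1.00 ± 0.20 in odor and 0.77 ± 0.20 in vehicle, again from below the control median. Ezh2, the methyltransferase of the Polycomb repressor, was above the control median on all 16 arrays and differed by 0.79 ± 0.13 and 0.65 ± 0.13. Mybl1, a Myb factor best known from male germ cells, read 5.55, 6.49, 5.62 and 6.75 in the odor arrays titled GFP+, against 6.09, 5.58, 5.91 and 5.89 titled GFP-. In vehicle pools its signals were 6.64, 5.71, 6.05 and 6.49 titled GFP+ and 6.19, 6.06, 5.54 and 5.79 titled GFP-. The fractions overlapped in both treatments, with differences of 0.24 ± 0.27 and 0.33 ± 0.27 (limma adjusted p = 0.539 in odor and 0.39 in vehicle).

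**Figure D3:**
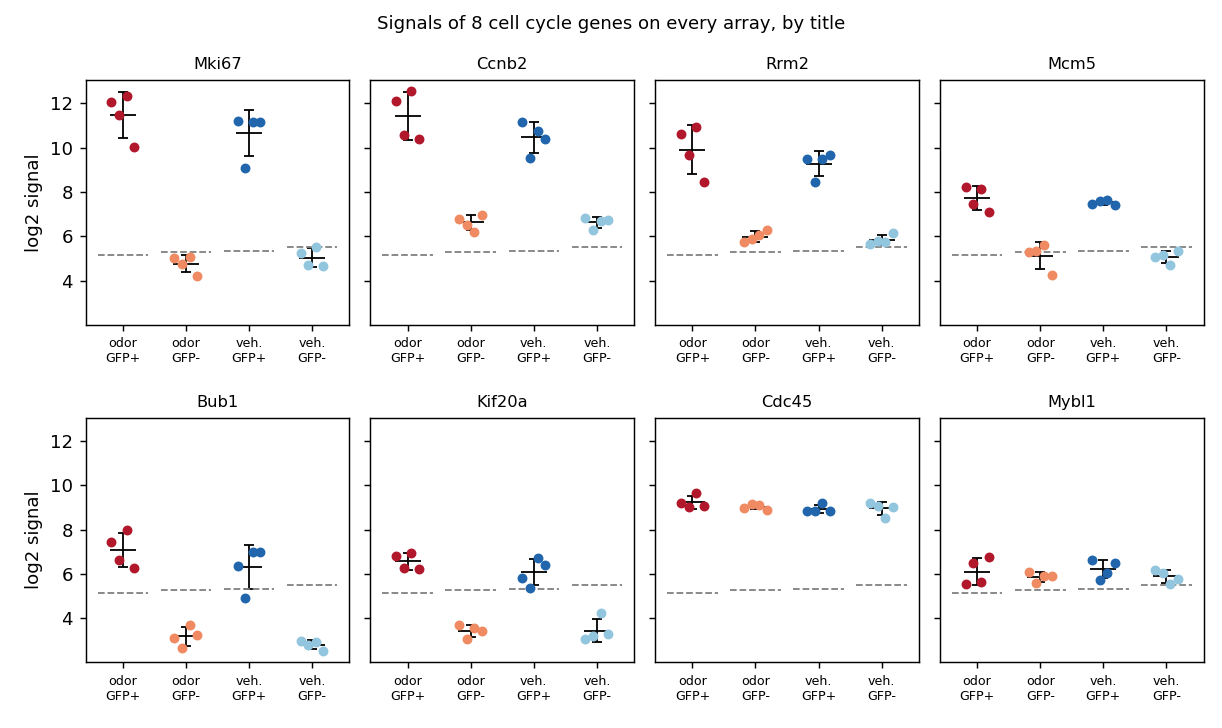
Log2 signal (y axis) of 8 members on every array, by group; points are pools 1 to 4 from left to right, the black bar is the mean with its SD (n = 4), and the dashed line is the mean negative control median of the group. The 6 members from Mki67 to Kif20a lie higher in both sets of arrays titled GFP+, whereas the groups of Cdc45 and Mybl1 overlap.

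The mitotic kinases and their passenger proteins were higher in 5 of 5 cases in odor and 3 of 5 in vehicle. Plk1, a kinase needed from mitotic entry to cytokinesis, read 9.82, 8.43, 9.77 and 8.03 in the odor arrays titled GFP+, against 5.55, 5.42, 6.19 and 5.56 titled GFP- (10.1-fold, 3.33 ± 0.31). Its vehicle signals were 8.85, 7.77, 8.88 and 9.08 titled GFP+, against 5.51, 5.86, 5.09 and 5.89 titled GFP- (8.33-fold, 3.06 ± 0.31). Both differences passed (limma adjusted p = 2.84e-06 and 6.89e-06) with no overlap.

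Aurkb is the kinase of the chromosomal passenger complex, which corrects faulty attachments to the spindle. It read 8.77, 7.38, 8.89 and 7.14 in the odor arrays titled GFP+, against 5.18, 5.10, 4.71 and 5.09 titled GFP- (3.02 ± 0.31, limma adjusted p = 7.11e-06, at least 6.76-fold). The vehicle values were 7.67, 6.88, 7.59 and 7.64 titled GFP+, against 5.21, 4.17, 5.50 and 5.83 titled GFP- (2.27 ± 0.31, adjusted p = 0.000111). Birc5, its partner survivin, had 1.44 ± 0.19 in odor and 0.86 ± 0.19 in vehicle. Cdca8, the partner borealin, passed in odor but not in vehicle, and the difference between treatments did not pass (0.57 ± 0.26, limma adjusted p = 0.9993). It read 5.73, 5.84, 6.57 and 5.42 in odor titled GFP+ and 4.85, 5.01, 5.32 and 4.65 in odor titled GFP- (0.93 ± 0.18, adjusted p = 0.00197). In vehicle Cdca8 read 5.41, 5.49, 5.71 and 5.46 titled GFP+ and 5.20, 4.68, 5.62 and 5.11 titled GFP- (0.37 ± 0.18, adjusted p = 0.166).

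Aurka, the kinase of the spindle poles, was close to the threshold in both treatments. It read 6.36, 6.71, 7.11 and 5.83 in the odor arrays titled GFP+, against 5.23, 5.92, 5.45 and 5.87 titled GFP- (0.88 ± 0.28, limma adjusted p = 0.0317). For vehicle pools it read 6.21, 5.94, 6.65 and 6.40 titled GFP+, against 5.44, 5.61, 5.05 and 6.08 titled GFP- (0.76 ± 0.28, adjusted p = 0.0629). The fractions overlapped in both treatments.

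All 5 genes of the spindle checkpoint and of the anaphase-promoting complex it restrains were higher in both treatments. Bub1, a checkpoint kinase of the kinetochore, read 7.46, 6.65, 7.98 and 6.27 in the odor arrays titled GFP+, against 3.13, 2.68, 3.70 and 3.25 titled GFP- (3.90 ± 0.33, limma adjusted p = 1.2e-06, at least 3.48-fold). In vehicle it read 6.37, 4.91, 6.97 and 7.00 titled GFP+, against 2.99, 2.81, 2.94 and 2.52 titled GFP- (3.50 ± 0.33, adjusted p = 3.58e-06, at least 1.75-fold). All arrays titled GFP- lay below the control median.

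Bub1b encodes a checkpoint protein that holds back the anaphase-promoting complex. It read 7.88, 6.67, 7.83 and 7.09 in the odor arrays titled GFP+, against 4.84, 5.81, 4.10 and 4.94 titled GFP- (2.44 ± 0.40, limma adjusted p = 0.000452). In vehicle pools its signals were 7.10, 6.15, 7.80 and 6.76 titled GFP+, against 4.88, 4.55, 4.40 and 5.14 titled GFP- (2.21 ± 0.40, adjusted p = 0.0011). Cdc20, the activator of that complex, differed by 2.20 ± 0.30 in odor and 1.98 ± 0.30 in vehicle, the kinase Ttk by 1.14 ± 0.24 and 0.85 ± 0.24, and the checkpoint protein Mad2l1 by 1.17 ± 0.19 and 0.84 ± 0.19.

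Of the 9 spindle, kinetochore and cytokinesis genes, 8 were higher in both treatments, with a median of 3.05 in odor and 2.48 in vehicle. Nusap1, which bundles spindle microtubules, read 9.43, 8.53, 9.70 and 7.47 in the odor arrays titled GFP+, against 5.64, 5.61, 5.49 and 5.19 titled GFP- (3.30 ± 0.29, limma adjusted p = 1.74e-06). Its vehicle signals were 8.30, 7.16, 8.002 and 8.22 titled GFP+, against 5.37, 5.28, 5.01 and 5.30 titled GFP- (2.68 ± 0.29, adjusted p = 1.34e-05, at least 5.31-fold). Each fraction kept to its own range, with no overlap.

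Kif20a, a kinesin of the central spindle, read 6.82, 6.29, 6.96 and 6.21 in the odor arrays titled GFP+, against 3.70, 3.07, 3.58 and 3.41 titled GFP- (3.13 ± 0.19, limma adjusted p = 5.85e-08, at least 2.43-fold). The vehicle values were 5.84, 5.38, 6.73 and 6.42 titled GFP+, against 3.06, 3.21, 4.23 and 3.30 titled GFP- (2.64 ± 0.19, adjusted p = 3.1e-07, at least 1.5-fold). The kinesins Kif11, Kif15 and Kif23 were of like size, at 3.05, 3.09 and 2.89 in odor and 2.26, 2.61 and 2.48 in vehicle, as were the kinetochore motor Cenpe, at 2.40 and 2.61, and the spindle assembly factor Tpx2, at 3.19 and 1.94. Cenpf, a kinetochore protein, passed at 1.14 ± 0.21 in odor and 0.72 ± 0.21 in vehicle, but all its 16 signals were below the control median.

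Prc1, which bundles microtubules of the central spindle, did not pass. It read 7.79, 7.42, 7.58 and 7.43 in the odor arrays titled GFP+, against 6.82, 7.09, 6.68 and 7.52 titled GFP- (0.52 ± 0.19, limma adjusted p = 0.0617). For vehicle pools it read 7.55, 7.56, 7.70 and 7.76 titled GFP+, against 7.25, 7.09, 7.22 and 7.13 titled GFP- (0.47 ± 0.19, adjusted p = 0.0932). The vehicle fractions did not overlap, while in odor 1 array titled GFP- lay above 2 of the arrays titled GFP+.

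By phase, 23 of 24 members of G2 phase and mitosis were higher in odor and 21 of 24 in vehicle, with median differences of 2.96 and 2.26. Of the S phase members 13 of 15 were higher in odor and 12 of 15 in vehicle, with medians of 1.17 and 0.78. E2f1 was counted with S phase and Ccna2 with G2 phase and mitosis, while the regulators Ezh2, Mybl1 and Mybl2 were counted in neither. Pcna, Rrm1, Mcm4 and Cdc45 are S phase members with a difference under 1 that were above the control median on all 16 arrays. Tk1, another S phase member with a difference under 1, was mostly at or below it. Rrm2 and Mcm6 were also above the control median on all 16 arrays, with larger differences. No test sets the phases apart, since signals of different features respond differently.

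The other genes of the pathway were taken from lists of genes that are no members. Counts of these and later lists stand beside the same shares over all genes. Those were 12.8% higher and 14.7% lower in odor, and 12.3% higher and 13.6% lower in vehicle. Of 56 other mitosis genes 48 were higher in odor and 42 in vehicle, with medians of 1.40 and 1.19, led by Ube2c, the ubiquitin-conjugating enzyme of the anaphase-promoting complex (at least 33.6-fold in odor and at least 18.0-fold in vehicle). The mitotic kinase Pbk, the trigger protein Cdca3 and the kinetochore protein Nuf2 are given as examples. Pbk was at least 6.00-fold higher in odor and at least 3.19-fold in vehicle, Cdca3 at least 8.09-fold and 6.06-fold, and Nuf2 differed by 2.85 and 2.76. Of 36 other replication genes 12 were higher in odor and 8 in vehicle, with medians of 0.39 and 0.29, Asf1b, a histone chaperone, at 3.32 and 2.93 being the largest. None of either list was lower.

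All 6 measured G1 cyclins and kinases were higher in both treatments, with Cdk2, the partner of the E cyclins, at 5.18 ± 0.27 in odor and 4.81 ± 0.27 in vehicle (at least 14.9-fold and at least 9.11-fold). Of 8 other E2F and Myb family genes 4 were higher in each treatment: Myb at 5.64 and 5.49, E2f8 at 5.83 in odor and at least 22.0-fold in vehicle, E2f2 at 6.13 and 5.01, and Tfdp1 at 0.36 and 0.32. Of 24 genes that restrain the cycle or mark exit from it, 11 were higher, 1 was lower and 12 did not pass in odor, and 10 were higher, 1 was lower and 13 did not pass in vehicle, with medians of 0.36 and 0.25. Btg2, an antiproliferative gene, differed by 5.70 ± 0.20 and 5.17 ± 0.20, and Cdkn1b, which encodes an inhibitor of the Cdk kinases, by 4.87 ± 0.32 in odor and 4.80 ± 0.32 in vehicle (at least 14.9-fold in vehicle).

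Markers of several cell types moved with the cell cycle genes between the fractions. Of 11 neutrophil precursor genes, 11 were higher in odor and 11 in vehicle, with medians of 6.76 and 6.57, led in vehicle by Chil3, Ngp, Ltf and Camp. On the log2 scale, their summed signal was 17.77 to 19.02 in odor titled GFP+ against 9.93 to 11.41 in odor titled GFP-, and 18.20 to 18.67 in vehicle titled GFP+ against 9.87 to 11.23 in vehicle titled GFP-. Of 9 erythroid genes 8 were higher in odor and 6 in vehicle, with medians of 2.55 and 1.56, led by the membrane protein Rhag (at least 22.9-fold and at least 7.69-fold). Their summed signal was 11.80 to 14.08 in odor titled GFP+ against 9.47 to 10.11 titled GFP-, and 10.94 to 12.55 in vehicle titled GFP+ against 9.54 to 9.86 titled GFP-.

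Most listed markers of globose basal cells and neurogenic progenitors also differed between the fractions. Of 8 globose basal and neurogenic progenitor genes 6 were higher in odor and 6 in vehicle, with medians of 1.03 and 1.20. Kit, the stem cell factor receptor, read 8.52 to 9.77 in odor titled GFP+ against 4.55 to 5.16 titled GFP-, and 8.66 to 9.44 in vehicle titled GFP+ against 4.29 to 5.05 titled GFP-. The neuronal precursor factor Nhlh1 read 8.60 to 9.50 in odor titled GFP+ against 4.09 to 4.92 titled GFP-, and 8.02 to 9.22 in vehicle titled GFP+ against 4.37 to 5.20 titled GFP-. Neurog1, a defining factor of immediate neuronal precursors, was at or below the control median on all 16 arrays (3.94 to 4.72 in odor titled GFP+ against 3.23 to 3.79 titled GFP-, and 3.77 to 4.66 in vehicle titled GFP+ against 3.44 to 4.18 titled GFP-); it is named for that low signal, after its values were seen. The summed signal of the list was 10.25 to 10.85 in odor titled GFP+ against 7.96 to 8.18 titled GFP-, and 10.16 to 10.80 in vehicle titled GFP+ against 7.88 to 8.37 titled GFP-. Signals are added before the log2 is taken, so the brightest genes weigh most in this sum. In the arrays titled GFP+ these were Kit and Nhlh1. The part of each cell type in the cell cycle differences was not tested.

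Within the arrays titled GFP+, pools differed, and the members differed together. The median SD of a member between pools was 0.66 in odor titled GFP+ and 0.29 in odor titled GFP-, and 0.40 in vehicle titled GFP+ and 0.29 in vehicle titled GFP-. The member median read 8.05, 7.40, 8.28 and 7.12 in odor titled GFP+ (pools 1 to 4) against 5.30, 5.59, 5.47 and 5.43 in odor titled GFP-. In vehicle it read 7.50, 6.91, 7.73 and 7.52 titled GFP+ against 5.32, 5.50, 5.43 and 5.72 titled GFP-. Odor pool 4 was the lowest of its arrays titled GFP+ for 32 of 42 members, and vehicle pool 2 for 34 of 42. Pool 3 was the highest for 22 members in odor and for 21 in vehicle.

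The neutrophil precursor median read 13.35, 11.98, 12.98 and 10.59 in odor titled GFP+ (pools 1 to 4) and 12.59, 11.56, 12.50 and 12.22 in vehicle titled GFP+. The erythroid median read 7.63, 7.00, 7.89 and 6.11 in odor titled GFP+ and 6.11, 5.17, 6.29 and 6.14 in vehicle titled GFP+. The progenitor median read 6.66, 6.03, 6.76 and 6.28 in odor titled GFP+ and 6.84, 6.44, 6.73 and 6.32 in vehicle titled GFP+. The pools lowest in members, odor pool 4 and vehicle pool 2, were also the lowest of their group in the neutrophil precursor and erythroid medians. The median of mature neutrophil genes, no precursor list, was lowest in the same pools (12.33 and 12.75). Medians of sustentacular (supporting) cells, of monocytes and macrophages, and of T and NK cells were lowest in vehicle pool 2 (9.12, 8.27 and 4.93). In odor those were lowest in pool 2 (8.70, 7.27 and 5.26). The progenitor median was lowest in odor pool 2 and vehicle pool 4, whereas the summed progenitor signal was lowest in odor pool 2 (10.25) and vehicle pool 2 (10.16).

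**Figure D4:**
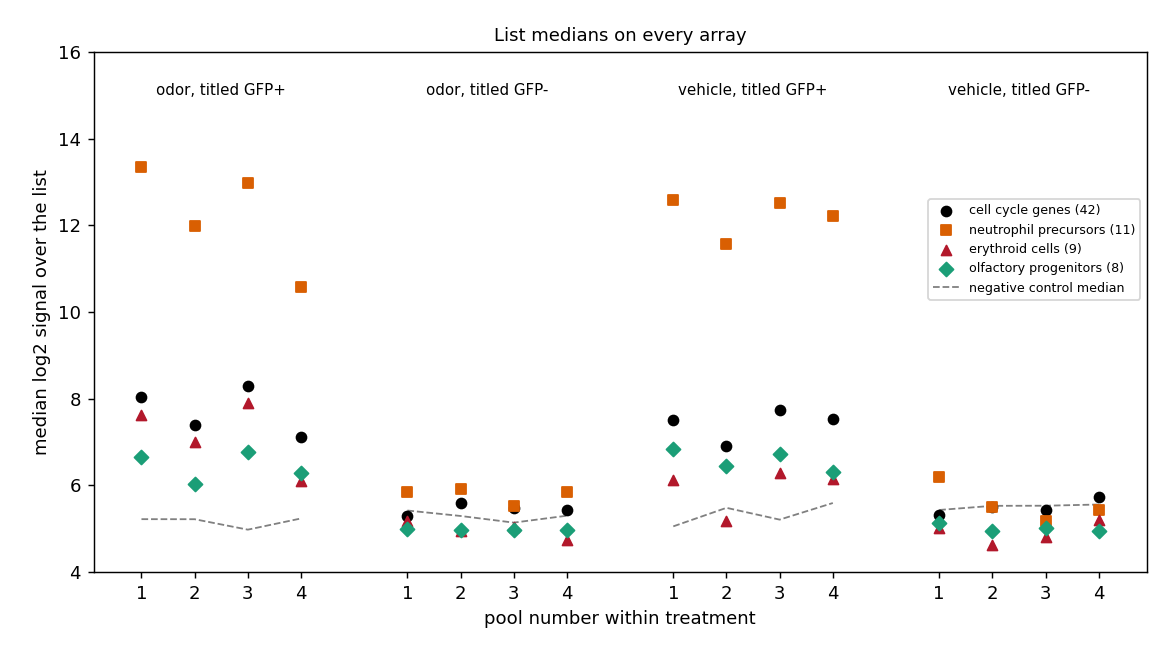
Median log2 signal (y axis) of 4 gene lists on each array, by group and pool number (x axis), with the negative control median as a dashed line; the number of genes in a list is in the legend. In the arrays titled GFP+ the cell cycle median is lowest in odor pool 4 (7.12) and vehicle pool 2 (6.91), as are the neutrophil precursor and erythroid medians, and in the arrays titled GFP- the cell cycle median minus the control median lies between -0.12 and 0.33.

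A further comparison asked whether the odor changed the cell cycle genes within a fraction. In the arrays titled GFP+, 0 of 42 members passed (limma with the pool as a random block; 0.0% of all genes higher and 0.00513% lower), and 4 of 42 had an unadjusted p under 0.05, all higher in odor (2.79% of all genes higher, 4.88% in either direction). Those were Tpx2 at 0.92 ± 0.36, Nusap1 at 0.86 ± 0.36, Ccnb2 at 0.94 ± 0.41 and Kif11 at 0.85 ± 0.39, with limma adjusted p = 0.9997 for each. Tpx2 read 7.73, 7.02, 6.79 and 5.81 in the odor arrays titled GFP+, against 6.07, 4.97, 6.56 and 6.09 in the vehicle arrays titled GFP+. For 0 of 42 members did every odor array lie above every vehicle array (1.34% of all genes).

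The fitted value was positive for 40 of 42 members in the arrays titled GFP+, against 51.2% of all genes, with a member median of 0.37. Since members share pools, this count is no test. The median was 0.17 without odor pool 3, 0.23 without vehicle pool 2 and 0.58 without odor pool 4, so single pools moved it by more than 1.5 times. The 2 negative members were Mybl1 at -0.12 ± 0.28 and Prc1 at -0.09 ± 0.18. In the same comparison the erythroid genes had a median of 1.16, with 7 of 9 at an unadjusted p under 0.05 and 0 past the adjusted threshold, the neutrophil precursor genes a median of -0.01, and the progenitor genes a median of -0.06. The part of these cell types in the members' values was not tested.

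In the arrays titled GFP-, 0 of 42 members passed (limma; 0.0% of all genes in each direction) and 0 had an unadjusted p under 0.05 (5.88% of all genes). The fitted value was positive for 21 of 42 members, against 50.7% of all genes, with a median of -0.0022. Top2a had the smallest p among the higher members (limma adjusted p = 0.907), at 0.44 ± 0.27, and was the only member whose odor arrays all lay above the vehicle arrays (2.44% of all genes). Cenpe at 0.57 ± 0.37 and Mcm4 at 0.22 ± 0.16 followed. Of the lower ones, Mcm3 had -0.53 ± 0.39, Pcna -0.18 ± 0.15 and Tpx2 -0.34 ± 0.36.

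**Figure D5:**
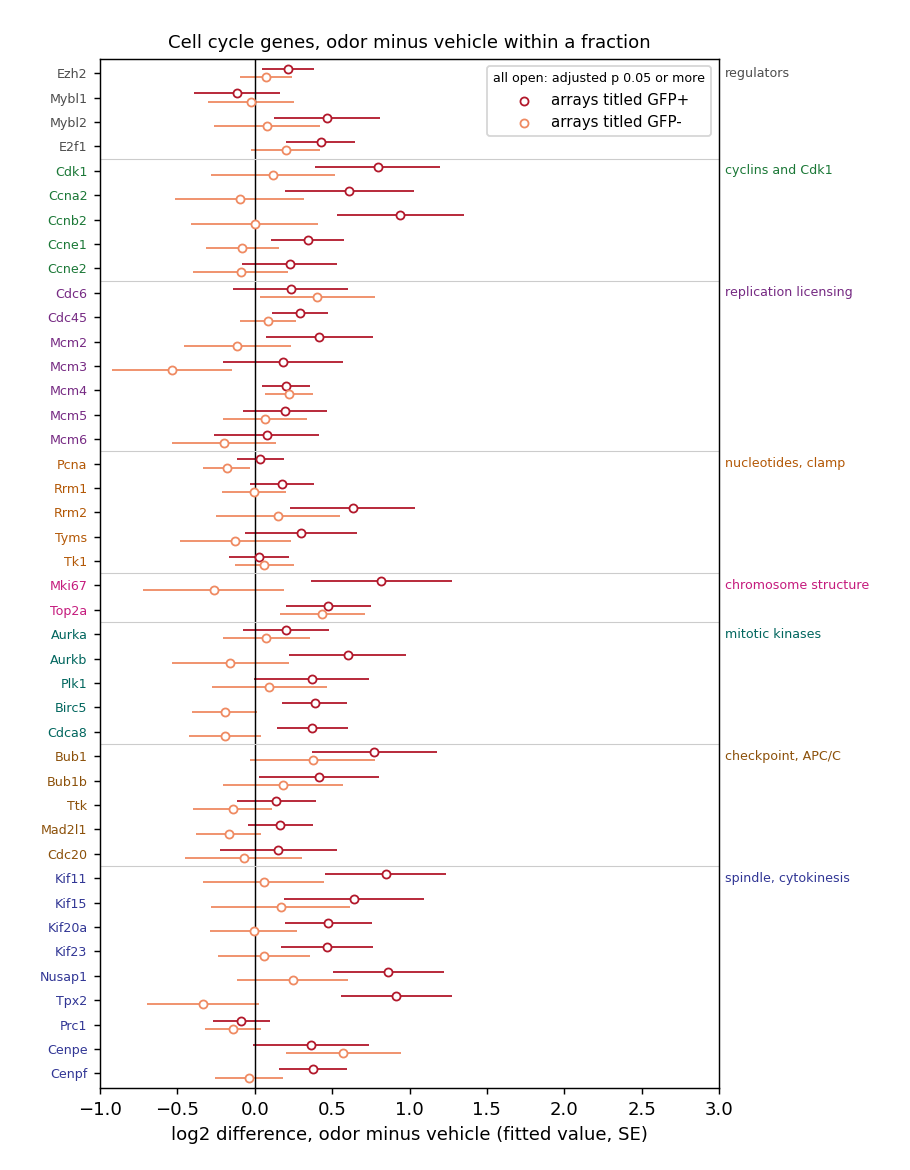
Fitted log2 difference, odor minus vehicle (x axis), of each of the 42 members (rows, by role) in the arrays titled GFP+ (dark red) and titled GFP- (orange); bars are SE, and all circles are open because no member passed the adjusted p of 0.05. In the arrays titled GFP+ 40 of 42 circles lie right of 0, and in the arrays titled GFP- 21 of 42.

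The fraction difference itself was compared between treatments, odor minus vehicle, in the same model. No member passed: the count was 0 of 42 by limma (0.0% of all genes higher and 0.00513% lower), with 4 at an unadjusted p under 0.05, all larger in odor (1.61% of all genes, 3.27% in either direction). Tpx2 led, with 1.25 ± 0.34 (limma adjusted p = 0.9993), followed by Mki67 at 1.08 ± 0.42, Birc5 at 0.58 ± 0.27 and Cdca8 at 0.57 ± 0.26. The fitted value was positive for 37 of 42 members, against 50.0% of all genes, with a median of 0.36. Without odor pool 1, odor pool 3 or vehicle pool 2 that median was 0.18, 0.17 or 0.16, and without odor pool 4 it was 0.60. The negative members nearest to the threshold were Cenpe at -0.21 ± 0.51, Cdc6 at -0.17 ± 0.49 and Mybl1 at -0.09 ± 0.38. This comparison and the one within the arrays titled GFP+ share those arrays, and this one also uses the arrays titled GFP-. Their values are given side by side only.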

How the data were processed

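RNA of 16 sorted samples (50 to 100 ng each, labelled with biotin per the labels' protocols) was hybridised to 1-colour Affymetrix arrays. The deposited values are log2 signals, 1 per feature and array, and per the submitters' processing notes Affymetrix Expression Console made them; its normalization is not given in the sources used here and its scale was kept. Of 28846 features 19572 carried 1 gene symbol in the platform annotation, which left 19505 genes after the feature with the highest mean was kept for each. No detection calls were used; 5222 negative control features gave the background.

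Groups came from the sample titles. limma 3.58.1 in R 4.3.3 was fitted to all genes (eBayes with a variance trend, two-sided, Benjamini-Hochberg over all genes, threshold 0.05). Fractions were compared with the pool as a fixed block. Odor was compared with vehicle within a fraction with the pool as a random block, at an estimated correlation of 0.164. The pairing is that of the design, both fractions coming from 1 pool, and their deviations from the group means correlated at 0.116 to 0.341. p-values of the fraction comparisons measure how far the difference between fractions varies among pools of 3 mice. That spread is estimated over the pools of both treatments, so a gene has the same SE in odor and vehicle. p-values of odor against vehicle measure the spread between pools. The script was tested on simulated data.

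The members and lists were chosen with earlier results of these data known. Values of every array are given for Mki67, Top2a and Cdk1, for the 1 or 2 members of each role with the largest vehicle fraction difference and for members not past the threshold. Where no member passed, the 3 smallest p-values in each direction are named, and of other lists up to 4 genes. The alternatives were 4 other scalings, leaving out genes with a mean below the 30th percentile, averaging features of a gene, no variance trend, other blocks and leaving out each pool. No signals of Ccnb1, Foxm1 and Mcm7 are analysed here, but the promoters of Ccnb1 and Mcm7 are counted.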

Additional observations from a re-analysis of the deposited data

Results flagged for a closer look

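In 8 of the 172 groups of 4 arrays examined, 1 array stood apart from the other 3 by Dixon's criterion, where chance gives about 8.6 at 5%. In the vehicle arrays titled GFP+, pool 2 was the low one for Mki67 (9.10), Rrm2 (8.44), Aurkb (6.88) and Cdk1 (4.34), and pool 3 the high one for Cdc45 (9.22). In the odor arrays titled GFP+, pool 4 was low for Ccne1 (6.58). In the vehicle arrays titled GFP-, pool 2 was low for Ezh2 (9.53) and pool 3 high for Ccne1 (6.27). Members share pools, so these are not independent.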

How the results depend on the processing

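Against 38 members higher in odor and 35 in vehicle, 36 to 40 and 29 to 40 were higher, with 0 lower, under the scaling, filter, feature, trend and pool block alternatives other than housekeeping centring, which gave 26 higher and 5 lower in odor and 24 higher and 4 lower in vehicle. Leaving out a pool gave 35 to 39 calls in odor (medians 1.92 to 2.49) and 30 to 36 in vehicle (medians 1.79 to 2.12), and 0 calls in the other 3 comparisons, whose medians ran from 0.16 to 0.60 for the difference between treatments, from 0.17 to 0.58 for odor against vehicle titled GFP+ and from -0.06 to 0.05 titled GFP-. Housekeeping centring moved the member median to 1.20 in odor and 1.05 in vehicle. Over all genes the calls, higher and lower, were 2502 and 2860 in odor and 2406 and 2658 in vehicle, against 1902 and 12906, and 1818 and 12539, with median centring, 2876 and 1458, and 2779 and 1399, with loess, 1208 and 16976, and 1193 and 16842, with housekeeping centring, and 3750 and 821, and 4254 and 680, with mature neuron centring. Housekeeping centring turned the sign, the cause not tested beyond its shift of all genes, in odor for Ezh2 (-0.20), Mybl1 (-0.76), Cdc45 (-0.81), Mcm4 (-0.44), Pcna (-0.0766), Rrm1 (-0.050), Tk1 (-0.69), Aurka (-0.11), Cdca8 (-0.058) and Prc1 (-0.47). In vehicle it did so for Ezh2 (-0.26), Mybl1 (-0.58), E2f1 (-0.14), Ccne2 (-0.13), Mcm4 (-0.34), Pcna (-0.21), Rrm1 (-0.15), Tyms (-0.17), Tk1 (-0.58), Aurka (-0.16), Birc5 (-0.054), Cdca8 (-0.55), Ttk (-0.057), Mad2l1 (-0.076), Prc1 (-0.44) and Cenpf (-0.19). Median centring turned Mybl1 (-0.14), Cdc45 (-0.20) and Tk1 (-0.078) in odor and Mybl1 (-0.039), Tk1 (-0.033) and Cdca8 (-0.0018) in vehicle. Cdc45 in vehicle became 0.13 with loess, 0.30 with mature neuron centring and ran from -0.25 to 0.094 without single pools. Without single pools the difference between treatments ran from -0.67 to 0.26 for Cenpe, from -0.48 to 0.35 for Cdc6 and from -0.32 to 0.17 for Mybl1, whose odor value titled GFP+ ran from -0.33 to 0.066. The cause was not tested. With the replicate number as a block in place of the random pool block, 0 members were called in both within-fraction comparisons; odor and vehicle pools of 1 number share only a number, correlating at 0.0787 to 0.41. Without the pool block 39 and 34 members were called, and with it as a random block 39 and 37. Signals below the control median limit what can be read of dim members.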

Other observations

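Marker genes of supporting cells of the epithelium also differed between the fractions. Of 10 sustentacular cell genes 9 were higher in odor and 9 in vehicle, with medians of 2.32 and 2.16, and all 11 genes of microvillar cells and ionocytes were higher in both, with medians of 2.51 and 2.49. Mature olfactory neuron genes went the other way, with 9 of 17 lower in odor and 10 of 17 in vehicle and none higher (medians -0.28 and -0.30), and of 10 immature neuron genes 4 were higher and 1 lower in each treatment.

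Mature neutrophil genes were higher in 10 of 10 cases in both treatments, with medians of 8.43 and 8.64. Monocyte and macrophage genes were higher in 10 of 11 in odor and 11 of 11 in vehicle (medians 1.88 and 1.92), and T and NK cell genes in 5 and 6 of 8. Of 10 B cell precursor genes 3 were higher in each treatment and 1 was lower in odor. Vpreb1, Vpreb2, Rag2 and Dntt of this list were above the control median on no array, so little can be read of them. Cd79a read 7.50 to 11.06 in odor titled GFP+ against 4.62 to 5.17 titled GFP-. Ebf1, the brightest of the list, read 16.55 to 16.73 in odor titled GFP+ against 16.83 to 16.95 titled GFP-. Whether B cell precursors differed between the fractions was not tested beyond these counts. Of 9 respiratory ciliated cell genes 5 were lower in odor and 4 in vehicle, and of 8 endothelial and mesenchymal genes 1 was higher in each. The endothelial and mesenchymal count is near the share over all genes, of which 12.8% were higher in odor and 12.3% in vehicle. Of 6 horizontal basal cell genes 1 was higher and 1 lower in odor and 0 passed in vehicle by limma, with none of the 6 above the control median on any array.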
